A study of Bos taurus with 48 samples.

Results

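The creatine kinases CKM, CKB and CKMT2 and the uncoupling proteins UCP2 and UCP3 were looked for among the probes of a bovine oligonucleotide array, and 4 of the 5 genes had a probe. CKM, CKMT2 and UCP3 carried their own symbol in the feature files. CKB was found only through the RefSeq accession of its probe, which the files call LOC516210. UCP2 was not analysed here. The 4 genes were measured by 5 of 21475 probes, which stand for 4 of 19729 genes, and each probe was spotted 2 times on every array. The genes were chosen by their prenatal and post-natal levels in these same arrays, where CKMT2 and UCP3 were already known to differ widely, so the levels from gestation to 3 months of age are described without a test.

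RNA came from the LTL, the long muscle of the back, of 35 cattle, and 48 arrays with Cy3 and Cy5 channels each set 2 arms of an experiment against each other. In the developmental experiment the arms were the crosses Piedmontese × Hereford and Wagyu × Hereford, at 60, 135 and 195 days of gestation, at birth, and at 3, 7, 12, 20, 25 and 30 months of age. In the nutrition experiment Belmont Red cattle (as the labels name them) received a weight loss diet, called restricted here, or a weight growth diet, and were sampled as adults at times 0, 1 and 2. Values are per animal and time point: 1 animal of each cross at 60 days, 5 animals in all at 135 and at 195 days, 6 at birth, and 8 at every post-natal age except 12 months, which had 6. GP041A and GP041B, both at 195 days, were counted as separate animals although the codes may point to relatives. The nutrition arms had 4 and 4 animals at time 0, 3 restricted and 4 growth animals at time 1, and 2 and 2 at time 2. Most post-natal and nutrition animals were sampled repeatedly. Nothing in the labels says how the prenatal and newborn animals were reared or related, and all p-values measure only the spread between these animals.

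Creatine kinases move a phosphate group between ATP and creatine, so that a contracting fibre can regenerate ATP faster than its mitochondria make it. CKM is the cytosolic enzyme of striated muscle and part of it sits on the M-band of the sarcomere, CKB is the cytosolic enzyme of brain and of many non-muscle and embryonic cells, and CKMT2 is the sarcomeric enzyme between the mitochondrial membranes, where it charges creatine with newly made ATP. UCP3 is a carrier of the inner mitochondrial membrane found mainly in skeletal muscle. It is known to follow fatty acid supply and its function is debated.

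The probe sequences are shown for reference and were not aligned to transcripts here. The array names alone did not settle which kinase was measured. The CKB probe carried a locus number. The description of 1 of the 2 CKMT2 probes named CKMT1A, the other mitochondrial creatine kinase. Both probes were assigned by the RefSeq accession in the files. The probes of CKM and of CKMT2 with the second name are printed whole (60 bases, G and C making up 55% and 41.7%), and of the others, with 35% (CKMT2), 41.7% (UCP3) and 40% (CKB), the first 30 bases are shown. They are written 5′ to 3′ as in the files, with no part in capitals because no part was singled out.
CKM: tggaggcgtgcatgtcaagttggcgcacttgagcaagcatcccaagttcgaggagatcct
CKMT2, probe A_73_117375: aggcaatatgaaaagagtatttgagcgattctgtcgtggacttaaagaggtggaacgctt
CKMT2, probe A_73_100299: gtgaactttcctttccctgatttataaata
UCP3: gattgtggtcttcagtgctttgtcttaaga
CKB: tttatttttgtgatggctgagatgttgctg
Over the 26 condition means the CKMT2 probes correlated at r = 0.995, a description across conditions that share animals, and their mean was used as the level of CKMT2.

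Levels below are log2 intensities after background correction and normalization, so a difference of 1 is a doubling. The level of one gene cannot be set against that of another, because each probe binds its target with its own strength. In an array's channel 49.9 to 76.4% of the spots were well above background. The CKM and CKB probes passed that mark in all 96 channels, the CKMT2 probes in 95 and 89 and the UCP3 probe in 90, and none was saturated in any channel. All 4 genes passed the filter on dim probes. In whole muscle, fewer cells of a type and less RNA per cell cannot be told apart. One Piedmontese × Hereford fetus at 135 days, GP672, stood apart: the skeletal actin gene ACTA1 was at 10.44 against 16.31 to 17.58 in the other 4 fetuses, and all 7 muscle fibre markers were below and all 4 adipocyte markers above those fetuses. The steps of the 4 genes that involve 135 days are therefore given with and without GP672. Shares covered at 135 days, values within slides, shares over all genes and values of other genes include GP672.

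**Figure D1:**
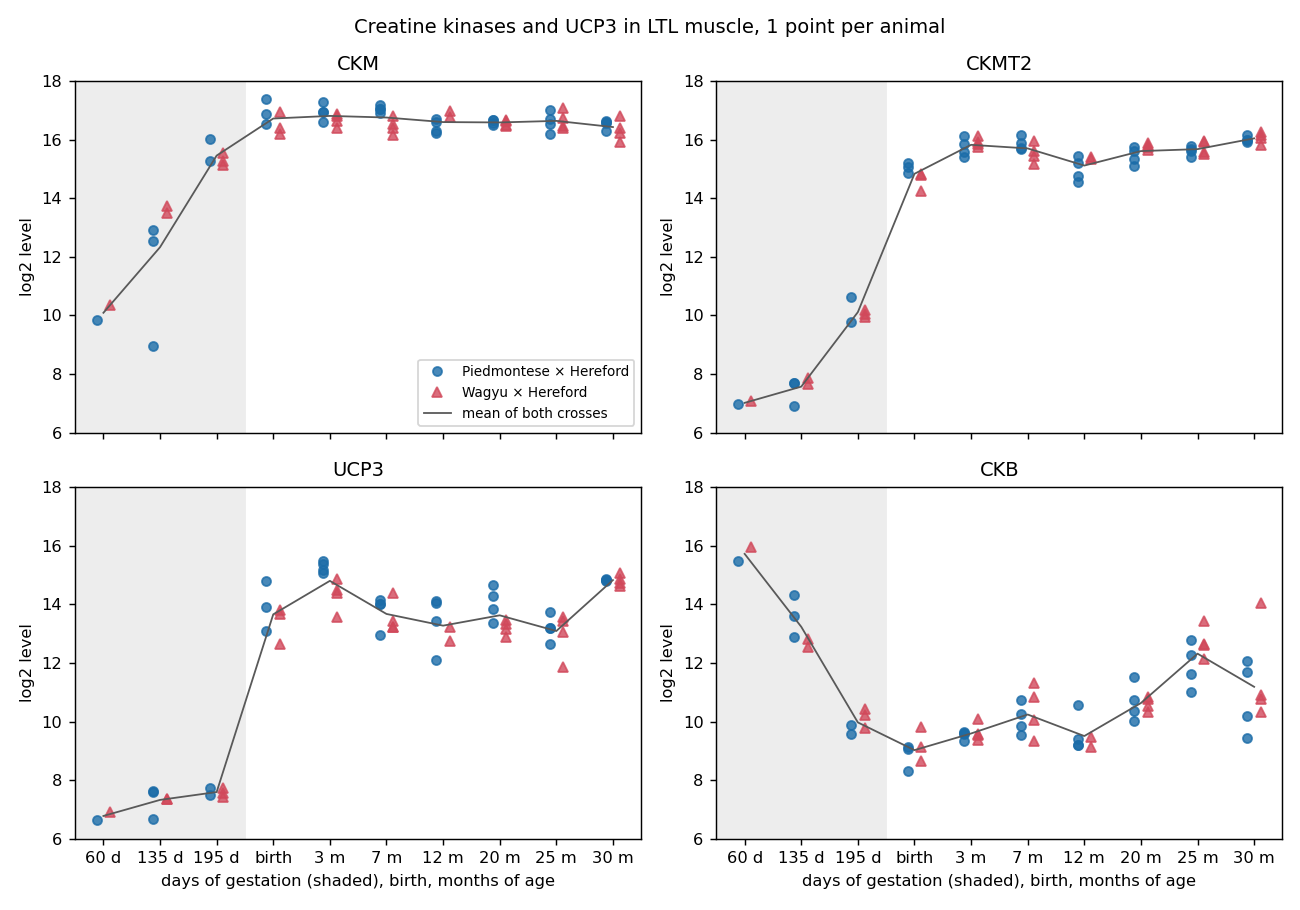
Log2 level (vertical axes) of CKM, CKMT2, UCP3 and CKB in every animal at 10 developmental time points (horizontal axes, gestation shaded, d days and m months). Circles are Piedmontese × Hereford, triangles Wagyu × Hereford animals, and the line joins the means over both crosses. CKM is at 15.46 by 195 days on average, UCP3 is still at 7.60 there and at 13.66 at birth, and CKB runs the other way, from 15.72 to 9.02.

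CKM was the earliest of the 3 genes that were higher after birth than in early gestation. The 2 fetuses at 60 days had levels of 9.84 and 10.35. At 135 days the levels were 8.95 (GP672), 12.55, 12.91, 13.51 and 13.72. At 195 days all 5 fetuses lay between 15.15 and 16.03, and the 6 newborns between 16.18 and 17.39, so no fetus of 135 days reached any of 195 days and no fetus of 195 days reached any newborn. The mean was 12.33 ± 1.95 (SD, n = 5) at 135 days and 15.46 ± 0.35 (SD, n = 5) at 195 days, a difference of 3.13 ± 0.88 (SE) or 8.73-fold. Of all 14656 genes 9.27% were, like CKM, higher in every animal of 195 days than in every one of 135 days. Without GP672 the 135 to 195 day difference was 2.28 (4.86-fold) and the 60 to 135 day difference 3.08 (8.47-fold) in place of 2.24. From 195 days to birth CKM was 2.40-fold higher, by 1.27 ± 0.24 (SE), and from birth to 3 months the levels overlapped (difference 0.09). By 195 days CKM had covered 79.8% of its log2 difference between 60 days and 3 months, which was 6.72 ± 0.27 (SE) or 105-fold.

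CKMT2 came later than CKM and its largest step lay between 195 days and birth. Its levels were 6.97 and 7.07 at 60 days and 6.91 (GP672), 7.67, 7.70, 7.70 and 7.87 at 135 days. At 195 days they were 9.79, 9.95, 10.05, 10.18 and 10.62, above every younger fetus. The newborns had 14.26 to 15.20 (median 14.84) and the calves of 3 months 15.41 to 16.13 (median 15.84), again without overlap. The step from 60 to 135 days was 0.55 with overlap, and 0.72 without GP672, when every older fetus was higher. The step from 135 to 195 days was 2.54 ± 0.22 (SE; 2.38 without GP672), or 5.83-fold. The step from 195 days to birth was 4.72 ± 0.19 (SE), or 26.3-fold, and that from birth to 3 months 0.99 ± 0.16 (SE), or 1.98-fold. As measured, CKMT2 had covered 6.29% of its whole difference at 135 days, 35.2% at 195 days and 88.8% at birth, and the whole difference was 8.80 ± 0.10 (SE), or 447-fold. These values take as their start a mean over a probe that was above background in 5 of 6 channels at 60 days and probe A_73_117375, which was not well above background in any of 6, so they are approximate. The latter probe alone gives only bounds, at least 150-fold from 60 days to birth and at least 312-fold to 3 months over both crosses. With processed signals the steps of CKMT2 were 1.71 from 60 to 135 days and 4.04 from 135 to 195 days. A larger share of its difference then lay before 195 days.

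UCP3 was near background through gestation and most of its log2 difference lay between 195 days and birth. The levels were 6.64 and 6.92 at 60 days, and 6.68 (GP672), 7.36, 7.37, 7.61 and 7.61 at 135 days. At 195 days they were 7.41, 7.49, 7.58, 7.74 and 7.75, and neighbouring time points overlapped. The step from 60 to 135 days was 0.55, and 0.71 without GP672, when every older fetus was higher. From 135 to 195 days the step was 0.27 (0.11 without GP672, still with overlap). The probe was well above background in 1 of 6 channels at 60 days, 5 of 6 at 135 days and 6 of 6 at 195 days, so the gene was detected late in gestation but at a low level. The newborns had 12.63, 13.09, 13.68, 13.82, 13.91 and 14.81. Every newborn was above every fetus, by 6.06 ± 0.31 (SE) or 66.9-fold on average over 195 days. As measured, UCP3 had covered 6.83% of its log2 difference at 135 days, 10.2% at 195 days and 85.8% at birth. These shares are approximate because the level at 60 days was mostly not above background. With processed signals the steps up to birth were 2.26, 1.13 and 7.36, so a larger share lay before 195 days. Levels at 3 months, 13.56 to 15.49, overlapped those at birth and were 1.14 ± 0.38 (SE) higher on average. In the Piedmontese × Hereford arm the probe was not well above background in any of 3 channels at 60 days, which gives at least 157-fold from 60 days to birth and at least 397-fold to 3 months.

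CKB went the other way and was lower at each step up to birth. Its levels were 15.48 and 15.97 at 60 days, 12.55, 12.82, 12.90, 13.60 and 14.30 (GP672) at 135 days, and 9.57, 9.78, 9.87, 10.22 and 10.41 at 195 days, with no overlap between these ages. The newborns, at 8.33 to 9.83, overlapped the fetuses of 195 days. The step from 60 to 135 days was -2.49 ± 0.40 (SE; -2.76 without GP672) and that from 135 to 195 days -3.26 ± 0.35 (SE; -3.00 without GP672), the latter 9.60-fold lower. In these steps 14.1% and 9.07% of all genes were lower in every older fetus. CKB had covered 40.6% of its difference at 135 days and 93.8% at 195 days. Its level at 3 months was 70.0-fold lower than at 60 days, by -6.13 ± 0.26 (SE). Its level at birth lay beyond that of 3 months, at 109% of the difference.

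**Figure D2:**
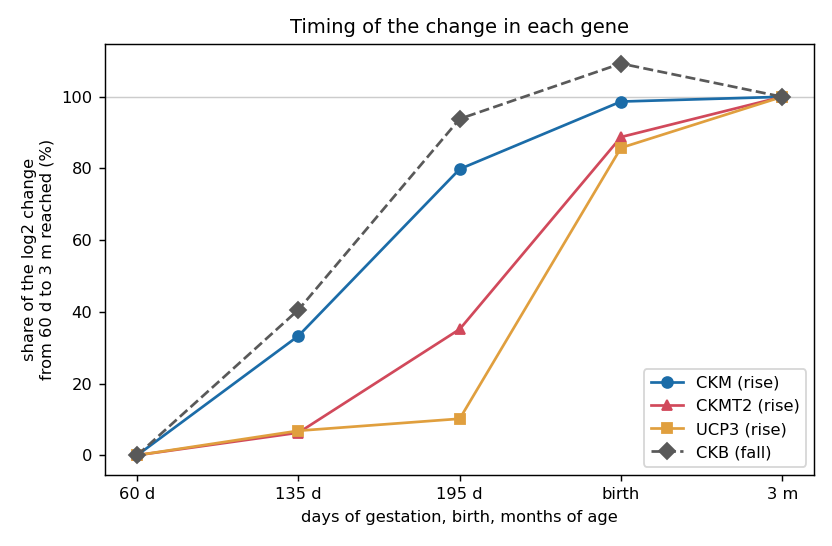
Share of each gene's own log2 difference between 60 days of gestation and 3 months of age that was covered at each time point (vertical axis in percent, horizontal axis the time points). At 195 days CKB had covered 93.8% and CKM 79.8%, but CKMT2 35.2% and UCP3 10.2%. The latter 2 are approximate because of low signals at 60 days. With processed signals both genes had larger steps before 195 days.

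The steps up to birth could be taken within slides. The slides with prenatal arrays each carried 60, 135 and 195 days and birth, and in 3 of 3 slides the step from 195 days to birth was positive for CKM (1.08 to 1.43), CKMT2 (4.15 to 5.12) and UCP3 (5.77 to 6.23). It was negative for CKB in the 3 slides (-1.27 to -0.19). For 135 to 195 days the values within slides ran from 1.86 to 4.50 for CKM, 2.11 to 3.10 for CKMT2, 0.14 to 0.55 for UCP3 and -3.46 to -2.98 for CKB. The 3 month arrays were on other slides, so the step from birth to 3 months cannot be told apart from the change of slide. Of all genes, 24.9% were higher and 22.9% lower in every newborn than in every fetus of 195 days, and 8.2% were higher in every calf of 3 months than in every newborn.

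The genes that work beside these enzymes were counted in the same steps, again without a test. Their values from 135 to 195 days include GP672, whose muscle fibre markers were low. From 135 to 195 days, where 9.27% of all genes were higher in every older fetus, 4 of 5 measured M-band, glycolytic and calcium pump partners were higher in every older fetus. These were the glycogen phosphorylase PYGM (2.70), the M-band protein MYOM2 (2.28), the muscle enolase ENO3 (2.06) and the calcium pump ATP2A1 (1.52). In that step 3 of 6 creatine supply and phosphotransfer genes were higher in every older fetus: GATM (1.96) and GAMT (1.28), which make creatine, and the adenylate kinase AK1 (1.36). Of 13 fatty acid oxidation genes 2 were, CPT1B (1.28) and PPARGC1A (0.33), a share near that of all genes.

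From 195 days to birth, when UCP3 and CKMT2 differed most, 9 of 13 fatty acid oxidation genes were higher in every newborn, with a list median of 1.45 against 0.06 over all genes. PDK4, the kinase that shuts pyruvate out of oxidation, was 7.43 higher, ACADM, a dehydrogenase of medium chain fatty acids, 3.81, and MLYCD, which removes malonyl-CoA, 3.17. The carnitine carrier SLC25A20 was 2.20 higher and CPT1B, the gate of fatty acids into mitochondria, 1.17. SLC6A8, which carries creatine into the cell, was 1.79 higher, and 6 of 9 respiratory chain and citric acid cycle genes were higher in every newborn, led by CYCS (2.61) and MDH2 (2.54). Among the carriers that exchange ATP for ADP, the muscle form SLC25A4 was higher (1.83) and SLC25A6 lower (-0.80) in every newborn. In the same step all 4 red blood cell markers were lower in every newborn, with a list median of -4.72, and 3 of 4 fibroblast markers were lower. Their part in the differences was not tested.

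Among post-natal ages the change within each animal could be tested, since the same pairs of animals shared arrays at 3 and 20 months and at 25 and 30 months. From 3 to 20 months UCP3 fell and CKB rose. UCP3 was at 13.56 to 15.49 (median 14.97) at 3 months and at 12.89 to 14.67 (median 13.41) at 20 months, and it was lower at 20 months in all 8 animals, by 0.10 to 2.12. The change was -1.18 ± 0.24 (SE, n = 8 animals; 95% interval -1.71 to -0.64), 2.26-fold lower, with an adjusted p of 0.00908 (limma). CKB was at 9.34 to 10.10 (median 9.58) and then at 10.01 to 11.53 (median 10.62). It rose in 8 of 8 animals, by 0.67 to 1.89, with a mean change of 1.04 ± 0.14 (SE; 95% interval 0.71 to 1.36), 2.05-fold, and an adjusted p of 0.00174 (limma). The values for CKM (-0.22, adjusted p = 0.127) and CKMT2 (-0.21, adjusted p = 0.0795) did not pass the threshold of 0.05 in limma. Of all genes 19.9% passed it, 10.1% higher and 9.72% lower. With each channel only centred on its median, no gene passed it and CKB (1.11) and UCP3 (-0.97) lost their calls. Within the 4 slides the change of UCP3 was -1.92 to -0.70 and that of CKB 0.70 to 1.43. The crosses did not differ detectably in these changes: limma called 0 genes for the difference, with 801 (5.47%) at an unadjusted p under 0.05.

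From 25 to 30 months UCP3 rose again, together with most fatty acid oxidation genes. Its levels were 11.87 to 13.74 (median 13.20) at 25 months and 14.64 to 15.06 (median 14.83) at 30 months, so the animals lay close together at the later age and did not overlap the earlier one, as for 1.77% of all genes. UCP3 rose in 8 of 8 animals, by 1.06 to 2.86, on average by 1.74 ± 0.23 (SE; 95% interval 1.21 to 2.27) or 3.34-fold, with an adjusted p of 0.0025 (limma). With each channel only centred on its median the change was 2.90, and the median of all genes then lay at 0.47. CKMT2 rose by 0.37 ± 0.09 (SE), 1.29-fold, in 8 of 8 animals, with an adjusted p of 0.0268 in limma. That call was lost without GP112 (adjusted p = 0.0648, limma), GP201 (0.0570) or GW179 (0.0730). CKB was lower in 6 of 8 animals, with a change of -1.13 ± 0.36 (SE; adjusted p = 0.0654, limma), and passed the threshold without GP130 (-1.34) or GW179 (-1.41), the animals in which it was not lower. The value for CKM was -0.21 (adjusted p = 0.348, limma). Under other processing it ran from -0.26 to 0.81 and never passed the threshold. Of all genes 14.9% passed, 8.47% higher and 6.47% lower.

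**Figure D3:**
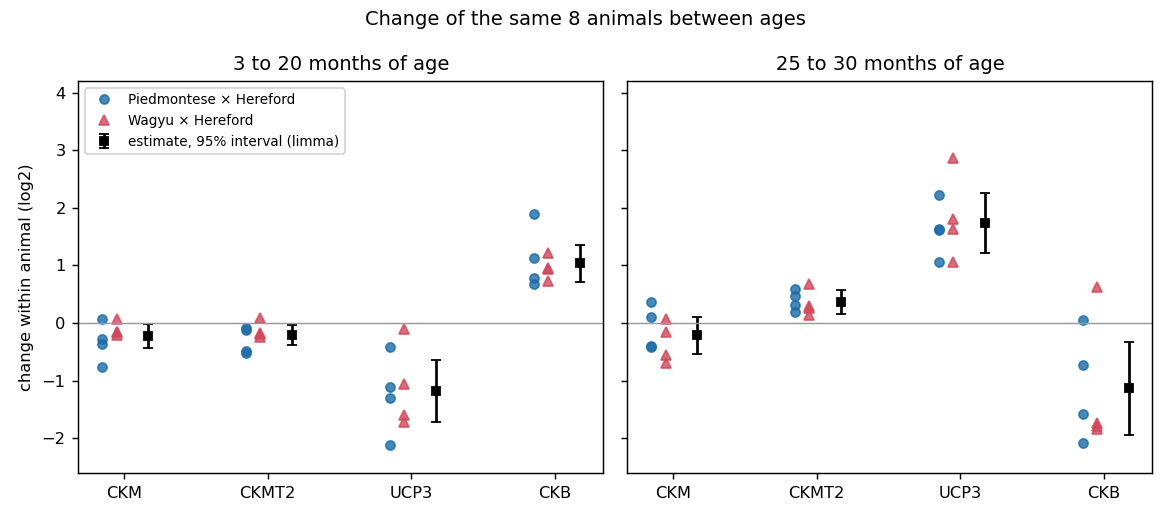
Log2 change of each gene within each of 8 animals (points, circles Piedmontese × Hereford and triangles Wagyu × Hereford) from 3 to 20 months (left panel) and from 25 to 30 months (right panel), with the limma estimate and its 95% interval (bars). All 8 animals lie below 0 for UCP3 on the left and above 0 on the right, and all 8 lie above 0 for CKB on the left.

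Genes of fatty acid use were counted in the same intervals. Of all genes 8.47% rose and 6.47% fell from 25 to 30 months in limma. From 3 to 20 months 10.1% rose and 9.72% fell. From 25 to 30 months 8 of 13 fatty acid oxidation genes rose and none fell in limma, with a median of 0.41 against 0.01 over all genes. PDK4 rose by 4.11, MLYCD by 1.80, CPT1B by 0.77, the fatty acid binding protein FABP3 by 0.71 and SLC25A20 by 0.43. From 3 to 20 months 3 of the 13 fell, PDK4 (-2.62), PPARGC1A (-1.30) and CPT1B (-0.42), and CPT2 rose by 0.40. Both creatine synthesis enzymes fell from 25 to 30 months, GATM by 0.75 and GAMT by 0.49, as 2 of 6 in their list. Of 7 nucleotide and phosphate exchange genes none passed the test in that interval. From 3 to 20 months SLC25A5 (-0.82) and SLC25A6 (-0.72) fell and VDAC1 rose by 0.21. None of the 3 other uncoupling proteins and close carriers passed the test in the later interval. All 4 red blood cell markers fell from 25 to 30 months, with a median of -3.13, and their part in the values of UCP3 was not tested.

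The levels of CKB and of adipocyte markers were set side by side after birth. From 3 to 20 months both rose, and from 25 to 30 months they went the same way in most animals. The mean log2 level of FABP4, ADIPOQ, PLIN1 and CIDEC had a median over animals of 8.76 at 3 months in Piedmontese × Hereford and 8.31 in Wagyu × Hereford, and of 9.86 and 10.15 at 20 months. All 4 markers rose from 3 to 20 months in limma, CIDEC by 2.39, FABP4 by 1.63, ADIPOQ by 0.97 and PLIN1 by 0.88. At 25 months, when CKB had its highest mean of 12.32 ± 0.74 (SD, n = 8), the list was at 10.34 to 11.73 and 10.83 to 12.35. At 30 months CKB spread from 9.44 in GP285 to 14.06 in GW179. The same animals had the lowest and the highest mean of the adipocyte markers at that age, 9.62 and 13.77. From 25 to 30 months, when CKB was lower in 6 of 8 animals, none of the 4 markers passed the test in either direction and the median of their changes was 0.12. In GP112, GP285, GW169, GW212 and GW245 CKB and the marker mean were both lower at 30 months, and in GP130 and GW179 both were higher. In GP112, for example, CKB changed by -2.08 while the marker mean went from 10.98 to 10.38. Only GP201 went opposite ways, with CKB changing by -0.72 while the marker mean went from 11.73 to 12.53. In the nutrition experiment CKB and the marker mean went opposite ways from time 0 to time 1 in RG157, RG166, RG208 and RL24. They went the same way in RG604, RL27 and RL671. In growth animal RG166 CKB changed by 0.79 while the marker mean went from 10.01 to 7.93. In restricted animal RL27 CKB changed by -1.30 while the marker mean went from 10.41 to 7.31. Each diet time had its own slide, so these changes cannot be told apart from the slide. The muscle fibre markers had a mean of 16.05 to 16.73 at 20, 25 and 30 months. The part of the adipocytes in the level of CKB was not tested.

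**Figure D4:**
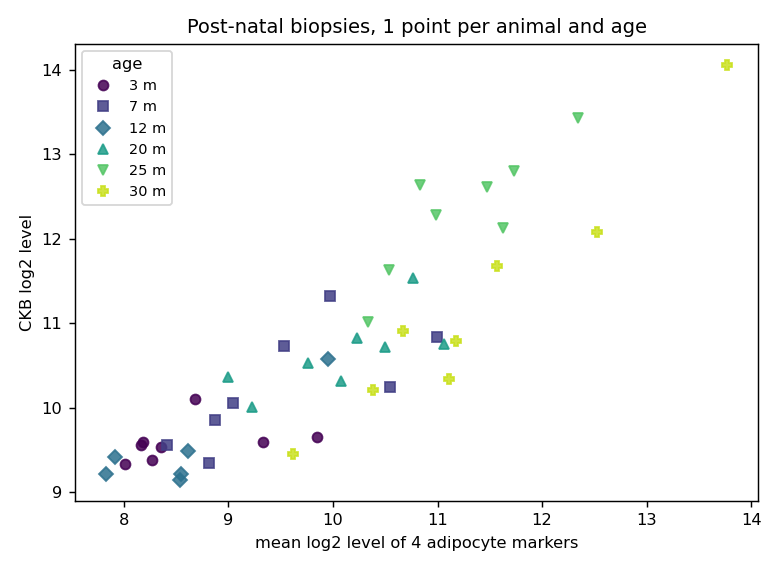
Log2 level of CKB (vertical axis) against the mean log2 level of 4 adipocyte markers (horizontal axis) in each animal at each post-natal age, with a colour for each age. Repeated points of an animal are not independent. GW179 at 30 months is highest on both axes, at 14.06 and 13.77.

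Post-natal means of CKM stayed between 16.43 and 16.81 at all 6 ages, and those of CKMT2 between 15.12 at 12 months and 16.04 at 30 months. UCP3 had means of 14.80, 13.67, 13.27, 13.63, 13.09 and 14.83 at 3, 7, 12, 20, 25 and 30 months. Its means were thus highest at the youngest and the oldest post-natal age. CKB had means of 9.59, 10.24, 9.51, 10.63, 12.32 and 11.19 at these ages. The levels of neighbouring ages overlapped for CKB throughout, and 25 and 30 months lie on other slides than the younger ages, so the step from 20 to 25 months cannot be told apart from the slides.

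The crosses were compared within time points, with 1 value per animal. None of the 4 genes passed the threshold, and UCP3 after birth came nearest to it. All 5 Piedmontese × Hereford animals lay above all 4 Wagyu × Hereford animals once the mean of each age was subtracted, by 0.46 ± 0.07 (SE; 95% interval 0.31 to 0.61), with an adjusted p of 0.153 (limma), and 0.757% of all genes were likewise higher without overlap. At 3 months UCP3 was 15.08, 15.16, 15.38 and 15.49 in Piedmontese × Hereford and 13.56, 14.39, 14.48 and 14.86 in Wagyu × Hereford, without overlap, as for 0.689% of all genes. At 20 months the means were 14.04 and 13.21 with overlap, and at 30 months 14.83 in both crosses. No gene of the whole array passed in limma before birth (480 or 3.28% at an unadjusted p under 0.05), at birth (976 or 6.66%) or after birth (717 or 4.89%). CKMT2 was 0.41 higher in the Piedmontese × Hereford newborns without overlap (adjusted p = 0.763, limma), as were 5% of all genes. Before birth the difference of CKM, Piedmontese × Hereford minus Wagyu × Hereford, was -0.84 (adjusted p = 0.999, limma), and -0.28 without GP672.

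The nutrition experiment asked how muscle answers to feed restriction and to feeding again, and all 4 genes were lower in the restricted animals at time 1. CKM was at 15.25, 15.36 and 15.98 in the restricted and at 16.47, 16.72, 17.26 and 17.70 in the growth animals. CKMT2 was at 13.23, 13.54 and 13.81 against 15.87, 16.17, 16.32 and 16.62. UCP3 was at 12.10, 13.07 and 13.64 against 14.72, 14.91, 14.93 and 15.51. For each of these genes every restricted animal lay below every growth animal. CKB, at 8.30, 9.01 and 9.14 against 9.62, 10.45, 10.49 and 10.62, did so too. Of all genes 14.9% were lower in every restricted animal. The difference was -2.72 ± 0.20 (SE) for CKMT2, 6.57-fold lower (adjusted p = 0.00246, limma), and -2.08 ± 0.36 (SE) for UCP3, 4.22-fold lower (adjusted p = 0.0126, limma). It was -1.51 ± 0.32 (SE) for CKM, 2.85-fold lower (adjusted p = 0.0218, limma), and -1.48 ± 0.29 (SE) for CKB, 2.79-fold lower (adjusted p = 0.0187, limma). Of all genes 15.1% passed the test, 1142 higher and 1064 lower (7.26% of all genes). With each channel only centred on its median the split was 2007 higher and 621 lower, and the calls of the 4 genes were kept. The CKMT2 probes gave -2.40 and -3.03.

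The calls of CKMT2 and UCP3 at time 1 held when any 1 of the 7 animals was left out. That of CKM was lost without RG208 (adjusted p = 0.0544, limma), RL24 (0.0550) or RL671 (0.0745), and that of CKB without RG157 (0.0529) or RL27 (0.0592). RL24 was on 2 of the 4 arrays. The count of all genes called fell from 2206 to 790 without RL27.

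The 4 genes did not differ detectably between the arms at the first or the last sampling. At time 0 the differences, restricted minus growth, were 0.05 for CKM, 0.52 for CKB (adjusted p = 0.357, limma), -0.73 for CKMT2 (adjusted p = 0.284, limma) and -0.41 for UCP3 (adjusted p = 0.575, limma), and 1.11% of all genes passed. At time 2, with 2 animals an arm, they were 0.28, -0.15, -0.17 and -0.63 in the same order. Limma called 0 genes there, with 969 (6.61%) at an unadjusted p under 0.05. UCP3 was at 14.30 and 14.43 in the restricted and 14.81 and 15.19 in the growth animals at time 2, without overlap (adjusted p = 0.647, limma), and 17.5% of all genes were lower without overlap there.

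**Figure D5:**
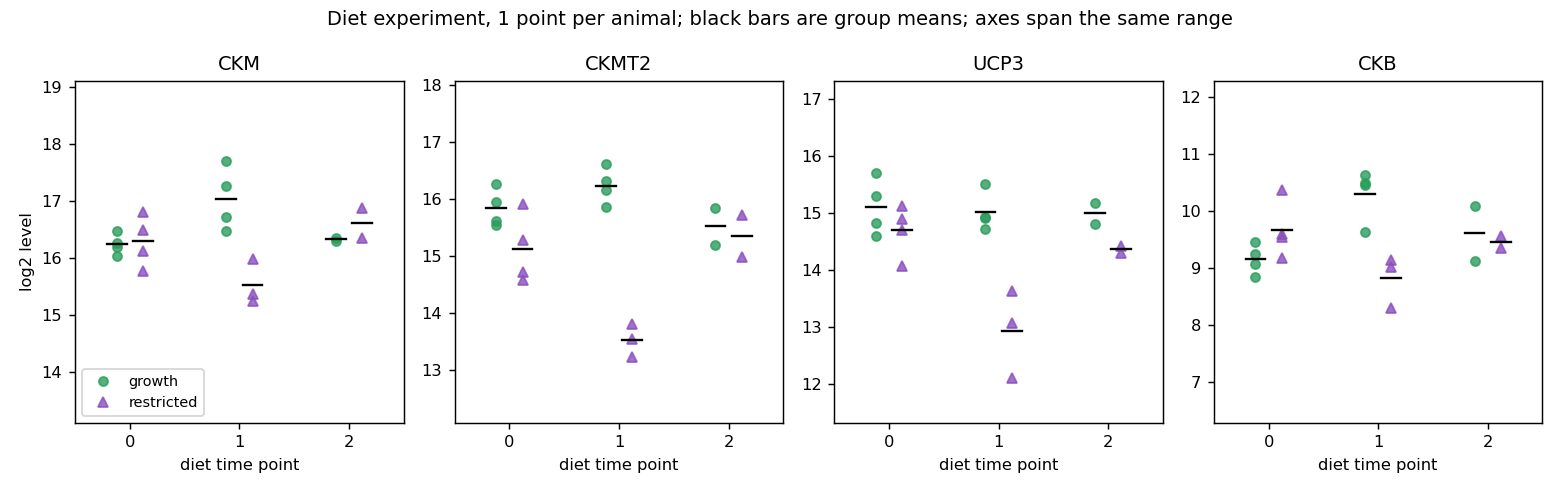
Log2 level (vertical axes, the same span in each panel) of CKM, CKMT2, UCP3 and CKB in each animal of the nutrition experiment at times 0, 1 and 2 (horizontal axes), growth diet as circles and restricted diet as triangles, with black bars for the means. At time 1 every restricted animal lies below every growth animal in all 4 panels.

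Each time had its own slide, so a change in 1 arm cannot be told apart from the slide, but the difference between the arms in their change can be tested. From time 0 to time 1 CKMT2 changed by -1.54 in the restricted and 0.39 in the growth animals, a difference of -1.94 ± 0.22 (SE; adjusted p = 0.00708, limma). CKB changed by -0.62 and 1.15, a difference of -1.77 ± 0.29 (SE; adjusted p = 0.0154, limma). With the ratios of the arms within arrays, which pair the 2 animals of an array, both calls were lost (adjusted p = 0.0954 for each, limma), with values of -2.17 for CKMT2 and -1.75 for CKB. That fit rested on the few pairs of animals that shared an array at both times. It called 0 of all genes, so it cannot decide about single genes. The differences for CKM, -1.50 (adjusted p = 0.0512, limma), and UCP3, -1.60 (adjusted p = 0.0899, limma), did not pass, except without RL27 (0.0285 and 0.0333). Of all genes 10.9% passed. From time 1 to time 2 CKM changed by 0.94 in the 2 restricted and -1.16 in the 2 growth animals, a difference of 2.10 ± 0.22 (SE; adjusted p = 0.0435, limma), and 0.348% of all genes passed. That call was lost without RG166 (adjusted p = 0.144, limma), RL24 (0.0559) or RL27 (0.128), and also with processed signals, no filter on dim probes or no dye correction (adjusted p up to 0.121, limma). CKMT2 (2.62, adjusted p = 0.0636), CKB (1.32, adjusted p = 0.0815) and UCP3 (1.13, adjusted p = 0.118) did not pass in limma.

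Partners of the creatine kinases were counted at time 1 against the 7.26% of all genes that were called lower. In the restricted animals 3 of 5 M-band, glycolytic and calcium pump genes passed the limma test as lower and none as higher, ENO3 (-2.47), ATP2A1 (-1.30) and PYGM (-1.28). Of 6 creatine supply and phosphotransfer genes AK1 (-2.02) and AK3 (-0.59) were lower. Of 7 nucleotide and phosphate exchange genes SLC25A4 (-1.28) and VDAC1 (-0.53) were lower and VDAC3 (1.23) higher. Of 13 fatty acid oxidation genes FABP3 (-2.01) and CPT2 (-0.75) were lower, and of 9 respiratory chain and citric acid cycle genes COX5A (-1.05), MDH2 (-0.99) and ATP5F1A (-0.84). None of the 3 other uncoupling proteins and close carriers passed the test in limma.

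Markers of the muscle fibre and of connective tissue differed between the arms too. The mean of 7 muscle fibre markers was 15.03 to 15.30 in the restricted and 16.43 to 17.16 in the growth animals at time 1. Of these 4 passed the test as lower, ACTA1 (-6.10), the myosin heavy chains MYH1 (-1.95) and MYH7 (-1.40) and the troponin TNNT3 (-1.62), and desmin, DES, as higher (1.34). The mean of 4 fibroblast markers was 9.51 to 10.35 against 11.55 to 12.98, with COL1A1 (-4.24) and COL3A1 (-4.44) lower. Of 4 adipocyte and 4 red blood cell markers none passed the test, and the adipocyte means were 7.31 to 8.64 and 7.93 to 10.50. The part of these cell types in the lower levels of the 4 genes was not tested.

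Likeness of pattern was measured as Pearson's r over the 26 condition means, a description across conditions that share animals and slides. Nearest to CKM were MYOM2 (0.989), ATP2A1 (0.988), LDB3 (0.987), RYR1 (0.986) and MYH1 (0.982). Among the nearest to CKMT2 were COQ10A (0.993), UBE2D4 (0.992), MSRA (0.992) and NDUFV3 (0.991), and nearest to UCP3 an unnamed transcript, BF042686 (0.984), then SLC25A20 (0.981), RB1CC1 (0.977), WDR26 (0.977) and PDHX (0.976). For CKB the highest values were lower, from RUSC1 (0.929) and DPY19L1 (0.924) to RCN2 (0.923), COMMD1 (0.920) and RND2 (0.917). CKMT2 and UCP3 correlated at 0.965 over all conditions but at 0.525 over the 12 post-natal ones, and CKM and CKMT2 at 0.911 and 0.03. CKM and CKB correlated at -0.841 over all 26 and at -0.382 over the 12.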

How the data were processed

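Per the labels, RNA was extracted with TRIzol, labelled with Cy3 and Cy5 and hybridised to 48 Agilent arrays on 12 slides, and the dyes changed arms from array to array. The authors deposited, per spot and channel, the intensity, the local background and flags from Agilent Feature Extraction 9.5.1 (per the submitters' processing notes), plus each spot's log10 ratio, Cy5 to Cy3. The deposited series table held the same log10 ratios: 0 of 44407 spots per array differed by over 1e-06. The genome build was not given in the sources used here.

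Intensities were background-corrected (normexp, offset 50), normalized by loess within and Aquantile between arrays (limma 3.58.1, R 4.3.3), and spots of a probe were averaged. Probes well above background in at least 24 of 96 channels with a value on every array were kept (15737 probes, 14656 genes, of which 1002 had several probes and took their mean). RefSeq named 16730 of 21475 probes. Gene-specific dye effects were removed and each animal gave 1 value per time point. Differences were tested with lmFit and eBayes, two-sided, with Benjamini-Hochberg adjustment over all genes and a threshold of 0.05. Within-animal changes had the shared array as random block (statmod 1.5.0; correlation 0.328 for 3 to 20 and 0.302 for 25 to 30 months). In all, 4 genes were tested in 11 comparisons, and the program was tested on simulated data. Figures were drawn with matplotlib 3.10.9.

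The genes, lists and tests were chosen with earlier results of these data known. Named are the 4 genes, listed partners that passed a described comparison or belong to the creatine, nucleotide exchange or uncoupling lists, and the 5 genes most like each in pattern, except that 1 result of this rule is not reported here. Bounds set the later mean against, per array, the higher of the lowest signal of any probe well above background and the dim probe's own signal, which was the higher one each time. Alternatives were processed signals, median centring, quantile normalization, other filters on dim probes, the probe with the highest mean, no dye correction, ratios within arrays, other treatment of shared arrays and each animal left out. The number of arrays limits the precision.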

Additional observations from a re-analysis of the deposited data

Results flagged for a closer look

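Single animals stood apart from the other 3 of their arm and time point in 4 of 56 sets of 4 animals, where chance gives about 5%. CKB was at 9.62 in growth animal RG166 at time 1, at 10.57 in Piedmontese × Hereford animal GP112 at 12 months and at 14.06 in Wagyu × Hereford animal GW179 at 30 months. The mean of the 4 adipocyte markers in GP112 at 12 months was 9.95 and in GW179 at 30 months 13.77. UCP3 was at 12.96 in Piedmontese × Hereford animal GP285 at 7 months. The diets differed in the change from time 0 to time 1 of CKB, by -1.77, and of CKMT2, by -1.94. They differed in the change from time 1 to time 2 of CKM, by 2.10, which rests on 2 animals an arm.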

How the results depend on the processing

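No value past the threshold changed direction under any alternative run. Counts of genes called moved with the scaling and with the use of ratios within arrays. Centred channels gave 0 genes for 3 to 20 months, 6021 for 25 to 30 months (4744 higher and 1277 lower, 78.8% higher against 56.7%), 53 for diet time 0 and 253 for the diet difference from time 1 to 2 (83 higher and 170 lower against 35 and 16). At diet time 1 their share of higher calls was 76.4% against 51.8%, and for the diet difference from time 0 to 1 they gave 1150 higher and 321 lower calls against 772 and 820, with the median of all genes at 0.16. Quantile normalization gave 70 for time 0, 29 for time 1 to 2 (16 and 13), and 41.3% higher calls against 51.1% for 3 to 20 months. Processed signals gave 98 for time 0, 1022 for time 0 to 1 and 2 for time 1 to 2. Without dye correction 826 and 9 were called for these changes. Requiring all 96 channels gave 232 for time 1 to 2 and no filter 0. Without the random block 3383 were called for 25 to 30 months. Ratios within arrays called 8 genes for the crosses after birth (4 with the deposited ratios, an alternative added after seeing the data, like leaving out GP672 as a whole), 0 (0) at time 0, 4003 (4316) at time 1, 447 (268) at time 2 and 0 (0) for time 0 to 1. They could not be fitted for time 1 to 2. These fits counted each pair of animals as independent although pairs shared animals after birth and at diet times 1 and 2. At time 2 the 4 arrays paired the same 2 restricted and 2 growth animals. The counts for these comparisons therefore cannot be set against those of the main fit.

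Calls of single genes that were lost were CKB (1.11) and UCP3 (-0.97) for 3 to 20 months with centred channels, CKB (-1.75 and -1.93) and CKMT2 (-2.17 and -2.06) for time 0 to 1 with ratios within arrays and the deposited ratios, and CKM for time 1 to 2 with processed signals (1.82), no filter (2.10) or no dye correction (2.11). Calls gained were CKMT2 for 3 to 20 months with quantile normalization (-0.27) or no block (-0.21), CKB for 25 to 30 months with quantile normalization (-1.12), all channels (-1.13) or no block (-1.13), and, for time 0 to 1, CKM with all channels (-1.50). For time 1 to 2 they were CKB with all channels (1.32) and CKMT2 with centred channels (2.25) or the highest probe (2.59). The cause was not tested. Steps without a test moved with processed signals (60 to 135 days CKMT2 1.71 and UCP3 2.26; 135 to 195 days CKMT2 4.04 and UCP3 1.13; 195 days to birth UCP3 7.36), with centred channels (60 to 135 days UCP3 0.96; 195 days to birth CKM 2.29 and CKMT2 5.09, with the median of all genes at 0.20; birth to 3 months CKM -0.43 and CKMT2 0.57) and with the highest probe (135 to 195 days CKMT2 3.02). UCP3 and CKMT2 gave no value when all 96 channels were required.

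With each animal left out in turn, counts were 1318 to 1996 for 25 to 30 months, 0 to 1 for the crosses before, at and after birth, 31 to 115, 790 to 1992, 455 to 1136 and 2 to 78 for time 0, time 1, time 0 to 1 and time 1 to 2. CKB lay at -1.41 to -0.99 and CKMT2 at 0.30 to 0.41 for 25 to 30 months, CKM at -1.74 to -1.29 and CKB at -1.71 to -1.22 at time 1, CKM at -1.95 to -1.12 and UCP3 at -2.24 to -0.94 for time 0 to 1, and CKM at 1.86 to 2.34 and CKMT2 at 2.12 to 3.12 for time 1 to 2. The ratios within arrays are the fits paired by array. Changes between ages and between diet times were tested on each animal's own change. The crosses after birth were tested on 1 value per animal, and each diet time was tested by itself on levels. By replicate number, no paired analysis was possible because these numbers only count arrays.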
